A study of Mus musculus with 6 samples.

Results

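The EGR, NR4A and KLF early response factors are 10 transcription factor genes, Egr1, Egr2, Egr3, Nr4a1, Nr4a2, Nr4a3, Klf2, Klf4, Klf6 and Klf10, taken by gene symbol from a table of 18853 genes. All 10 were in the table and all 10 passed the filter on low counts, which left 13696 genes. They were measured by RNA sequencing in bone marrow stromal cells (BMSCs), which grow attached to plastic and hold precursors of osteoblasts and adipocytes. The mouse cells were cultured in αMEM with 10% FBS, a serum-containing medium. The HRP2-KO group, in which the gene for the chromatin protein HRP2 (HDGFR2, listed as Hdgfl2) was knocked out, had 3 samples, numbered 6, 7 and 44, and the WT group had 3, numbered 10, 11 and 12. The labels used here do not give how the allele was made, in which cells it acts, the age of the mice, any agent given to the cells, or whether each sample was a separate animal or culture. The p-values therefore measure the spread between these samples, which may be technical.

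Early response genes are transcribed within minutes of a stimulus, without the need for new protein, and their mRNAs decay quickly. Serum, growth factors and mechanical handling act on many of them through the kinase ERK and the serum response factor SRF, which binds the CArG box with its partners. Agents that raise cyclic AMP, such as parathyroid hormone in bone cells, act through the factor CREB, which binds the CRE and its TGACG core. EGR proteins are zinc-finger factors that bind GC-rich sites. NR4A proteins are orphan nuclear receptors, and KLF proteins are zinc-finger factors that bind CACCC and other GC-rich boxes.

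Library totals lay between 20184473 and 20680779 estimated counts. Hdgfl2 itself, the check of the labels, had 6.59, 5.56 and 11.8 CPM (counts scaled to the library total) in HRP2-KO replicates 6, 7 and 44, against 51.4, 56.2 and 58.25 CPM in WT replicates 10, 11 and 12 (edgeR adjusted p = 0.0711). The labels name no batch. HRP2-KO replicate 7 stood apart, with correlations of log2 CPM across genes of 0.884 and 0.861 with HRP2-KO replicates 6 and 44 and of 0.912 to 0.934 with the WT libraries. HRP2-KO replicate 44 was low in long transcripts. Its genes in the longest of 5 transcript-length groups had a median deviation of -0.499 in log2 CPM from their mean over the 6 libraries, and those in the shortest group one of 0.531. The stromal markers, 12 of 12 listed, summed to between 22300 and 28900 CPM in HRP2-KO and to between 5390 and 10500 CPM in WT, a sum in which Col1a1 and Col1a2 made up 87.1% to 95.4% in HRP2-KO and 57.0% to 73.5% in WT. The other 10 stromal markers summed to between 1340 and 3050 CPM in HRP2-KO and to between 2180 and 3500 CPM in WT, which overlap, and 4 of the 12 (Pdgfra, Eng, Thy1 and Cxcl12) had lower fitted levels in HRP2-KO. Macrophage markers, 12 of 12 listed, summed to between 1190 and 13300 CPM in HRP2-KO, with the highest sum in replicate 7, and to between 9010 and 22800 CPM in WT. Most of each sum was Lyz2, at 7427 CPM in HRP2-KO replicate 7 and 12280 CPM in WT replicate 10. In fitted level 9 of the 12 were lower in HRP2-KO and 3 higher (Adgre1, Itgam and Fcgr1). Those 3 were higher in HRP2-KO replicate 7 than in any WT library. The 7 endothelial markers summed to at most 6.64 CPM in HRP2-KO and 20.1 CPM in WT, with 5 of the 7 under 1 CPM in every library. The 4 adipocyte markers summed to at most 0.146 CPM in HRP2-KO and to between 1.60 and 26.3 CPM in WT, with Lep at 0 in every library. The 6 osteoclast markers summed to between 57.0 and 63.0 CPM in HRP2-KO and to between 34.8 and 48.2 CPM in WT. Most of this was Ctsk. Atp6v0d2 was instead wholly lower in HRP2-KO. Its values for replicates 6, 7 and 44 were 1.07, 3.26 and 0.446 CPM, against 15.6, 11.4 and 5.18 CPM in WT. Only replicate 7 put Acp5 above the WT range, with 13.85 CPM. The other 3 osteoclast markers (Calcr, Dcstamp and Ocstamp) stayed under 1 CPM in every library. Of 6 erythroid and megakaryocyte markers 5 were in the table, summing to between 10.9 and 42.0 CPM in HRP2-KO and to between 37.2 and 147 CPM in WT, with Pf4 averaging 18.5 ± 14.6 CPM in HRP2-KO and 80.7 ± 57.4 CPM in WT (SD, n = 3 each). Of the 6 granulocyte markers 5 were under 1 CPM in every library, as were the 3 B-cell genes of 5 listed lymphoid markers, while the T-cell genes Cd3e and Cd3g were not in the table used here. The part of these cell types in the levels of the factors was not tested. In bulk RNA, fewer cells of a type and less RNA per cell cannot be told apart.

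None of the 10 factors passed the threshold in the comparison of HRP2-KO with WT, although 8 of the 10 had lower fitted levels in HRP2-KO, beside 49.0% of all tested genes. With edgeR's quasi-likelihood test and adjustment over all 13696 genes, 0 of 10 were called at an adjusted p of 0.05, where 1 gene was called over the whole table (0.00730%, lower). At an unadjusted p under 0.05 there were 2 of 10, Nr4a2 and Klf10, both lower, beside 9.10% of all tested genes lower and 12.7% higher. DESeq2 called 1 of 10, Nr4a2, lower, beside 3.90% of its tested genes, and limma voom and limma on TPM called 0. The values of the 3 HRP2-KO libraries all lay below those of the WT libraries in 4 of 10 factors (Nr4a2, Nr4a3, Klf4 and Klf10), beside 14.0% of all tested genes, and all lay above them in 0 of 10, beside 17.0%. The median log2 fold change of the 10 was -0.67, beside 0.015 for all tested genes.

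**Figure D1:**
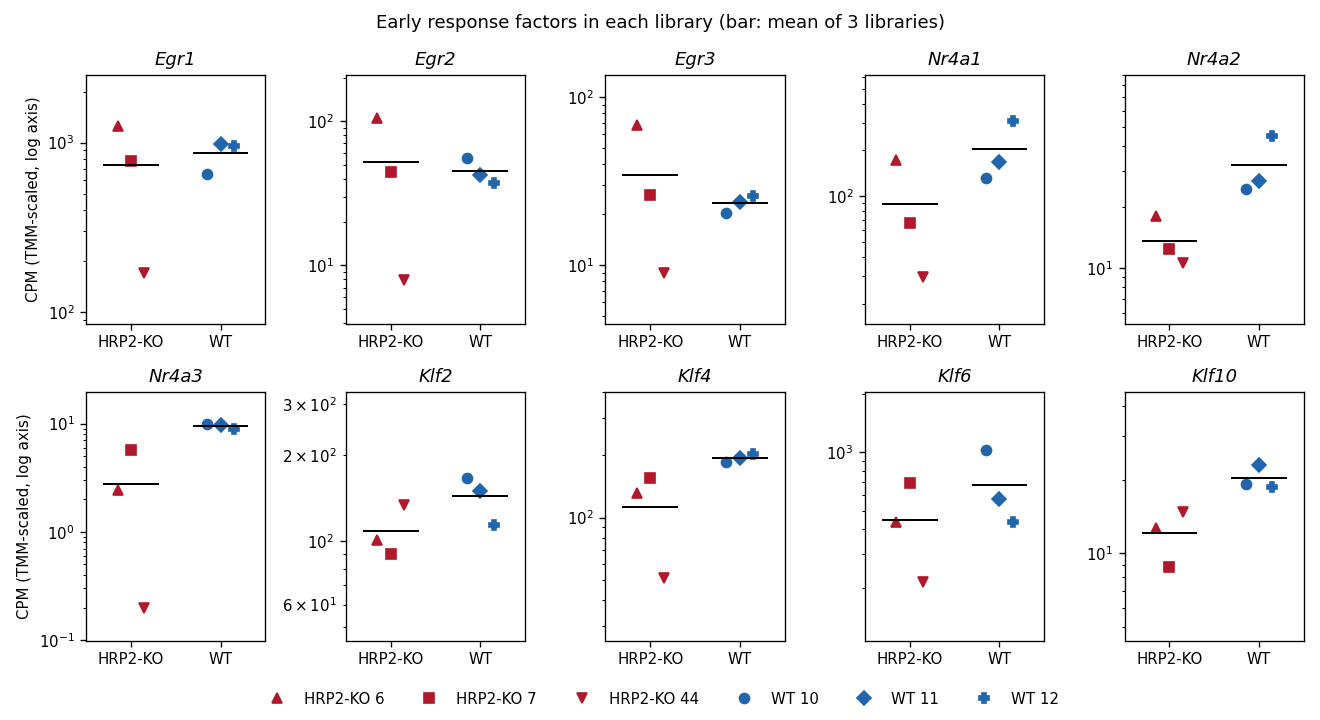
Level of each factor in CPM, scaled with TMM factors, on a log axis, with 1 symbol per library and a bar at the mean of 3 libraries; HRP2-KO is on the left and WT on the right of each panel. Egr1, Egr2 and Egr3 have their highest and their lowest value within HRP2-KO, while the groups are separate for Nr4a2, Nr4a3, Klf4 and Klf10.

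Per transcript length, in TPM, Egr1 had the highest mean level of the 10 in both groups and Nr4a3 the lowest. In HRP2-KO the mean levels ran from Egr1 at 483 ± 389 TPM through Klf6 at 205 ± 119, Klf2 at 112 ± 12.4, Nr4a1 at 72.7 ± 66.5, Klf4 at 72.4 ± 39.7, Egr2 at 37.8 ± 37.4, Egr3 at 17.4 ± 16.6, Nr4a2 at 7.97 ± 3.29 and Klf10 at 7.37 ± 1.58 to Nr4a3 at 0.977 ± 0.957 TPM (SD, n = 3). Only Klf10 and Nr4a3 were neighbours in that order whose libraries did not overlap. In WT they ran from Egr1 at 633 ± 162 TPM through Klf6 at 353 ± 141, Nr4a1 at 183 ± 86.5, Klf2 at 178 ± 31.0, Klf4 at 142 ± 12.4, Egr2 at 35.2 ± 6.32, Nr4a2 at 21.9 ± 7.91, Klf10 at 14.9 ± 2.44 and Egr3 at 13.0 ± 2.08 to Nr4a3 at 3.85 ± 0.285 TPM (SD, n = 3). There the libraries separated Klf4 from Egr2 and Egr3 from Nr4a3, and the other neighbours overlapped. Within families, Egr1 made up 90.6 ± 1.99% of the summed EGR TPM in HRP2-KO and 92.5 ± 2.59% in WT. Nr4a1 made up 85.2 ± 6.82% of the summed NR4A TPM in HRP2-KO and 87.1 ± 1.90% in WT.

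The EGR factors had no common direction between the genotypes, and their levels differed more among the HRP2-KO libraries than between the groups. Egr1 (Entrez 13653) is a family member induced by serum and growth factors in most cell types. It had 1257, 782 and 170.5 CPM in the HRP2-KO libraries (6, 7 and 44, the order used throughout). In the WT libraries (10, 11 and 12) Egr1 had 657, 979 and 960 CPM. Replicate 6 was the highest of all 6 libraries and replicate 44 the lowest, with replicate 7 inside the WT range. Egr1 averaged 736 ± 545 CPM in HRP2-KO and 865 ± 181 CPM in WT (SD, n = 3 each), and the log2 fold change was -0.23 ± 0.66 (standard error, edgeR adjusted p = 0.844).

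Egr2 (Krox20, chromosome 10, 67534469 to 67542188), a regulator of Schwann cell myelination, of hindbrain patterning and of osteoclast precursors, stood at 104.7, 44.7 and 7.88 CPM in HRP2-KO, against 55.85, 42.2 and 37.0 CPM in WT. Egr3, which acts in muscle spindle development and in lymphocytes, stood at 67.6, 26.0 and 8.97 CPM in HRP2-KO, against 20.3, 23.7 and 25.9 CPM in WT. Both genes had the order of Egr1 within HRP2-KO, with replicate 6 above every WT library and replicate 44 below every WT library. The log2 fold change was 0.22 with a standard error of 0.79 for Egr2 (edgeR adjusted p = 0.881) and 0.55 with 0.66 for Egr3 (edgeR adjusted p = 0.624), and both turned negative without HRP2-KO replicate 6, at -0.80 and -0.425, and with limma on TPM, Egr2 also with limma voom. With limma on TPM the median of all genes was itself -0.21 and -0.235, and Egr3, at -0.064 and -0.11, stayed above it. Egr1 turned positive without HRP2-KO replicate 44, at 0.23. An annotated long non-coding gene, Gm32255, overlaps the start of Egr2. Whether counting used strand is not stated, so its reads could not be separated from those of Egr2.

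The position of HRP2-KO replicate 6 as the highest and replicate 44 as the lowest of the 6 libraries was held by 2.22% of all tested genes, and by Egr1, Egr2 and Egr3 among the 10. In replicate 6 Egr1, Egr2 and Egr3 were 1.45, 2.32 and 2.90 times their WT means, and in replicate 44 they were 5.08, 5.71 and 2.60 times below them. Macrophage markers were low in both of these libraries, at a summed 1187 CPM in replicate 6 and 2443 CPM in replicate 44, and the part of macrophages in the EGR values was not tested. Egr1 and Egr2 fell in the middle of the 5 transcript-length groups, where the median gene in replicate 44 deviated by -0.018 in log2 CPM from its mean over libraries, against -2.01 for Egr1 and -2.27 for Egr2. Egr3 fell in the next longer group, where the median deviation was -0.273 and that of Egr3 -1.42.

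**Figure D2:**
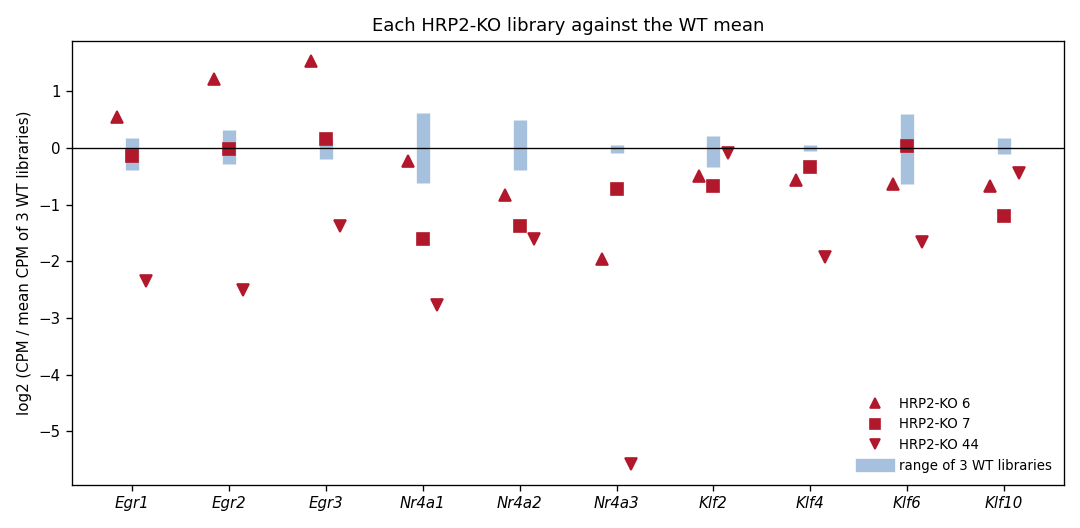
Each HRP2-KO library as log2 of its CPM over the mean CPM of the 3 WT libraries, 1 symbol per library, with the range of the 3 WT libraries as a blue bar. Replicate 6 lies above the WT range for Egr1, Egr2 and Egr3, beside 38.4% of all tested genes. Replicate 44 lies below the WT range for every factor other than Klf2, beside 43.7% of all tested genes.

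The promoter of Egr2 is shown because it holds both kinds of element through which early response genes are known to be induced. Sequences are the 250 bases upstream of annotated starts, from RefSeq on GRCm38.p6. Windows of 7 of the 10 factors were searched, 11 in all. Egr3 and Klf10 had no window, and Egr1 was left out of the search. The motifs searched on both strands were the CArG box, TGACG, the full CRE TGACGTCA and the EGR site GCGGGGGCG. Capitals mark every match to the CArG box, to TGACG or to the EGR site, on either strand.
Egr2 (chr10:67537619-67537868, plus strand): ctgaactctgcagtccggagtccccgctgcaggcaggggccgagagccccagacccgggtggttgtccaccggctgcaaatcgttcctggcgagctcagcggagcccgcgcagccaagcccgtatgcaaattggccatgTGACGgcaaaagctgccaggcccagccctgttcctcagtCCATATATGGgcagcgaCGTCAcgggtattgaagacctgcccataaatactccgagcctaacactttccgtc
This is 1 of 5 windows listed for Egr2, of which 4 hold a CArG box. Those that start at 67537619, 67537620 and 67537680 overlap and hold the same box, so they are not independent. The motif was in 1.47% of all 32851 windows of the same length and in none of those of the other 6 factors searched. Whether Egr1 holds it was not searched. In the printed window the CArG box begins 72 bases before the start, between TGACG matches that begin 111 and 55 bases before it, and no matches overlap. The TGACG core alone was in 17.8% of all windows and the full CRE in 1.55%, the second in none of the 11. A match describes the letters and shows neither binding nor a cause.

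The NR4A factors were lower in HRP2-KO than in WT in fitted level, each by more than 2-fold with all 6 libraries, and none passed the threshold. That size did not hold in every fit that left out 1 library: Nr4a1 was at -0.74 without WT replicate 12, -0.765 without HRP2-KO replicate 44 and -0.99 without HRP2-KO replicate 7, and Nr4a2 at -0.91 without WT replicate 12, on the log2 scale. Being at least 2-fold lower was true of 10.8% of all tested genes. Nr4a2 (Nurr1, Entrez 18227, chromosome 2, 57106830 to 57124003), a receptor needed for midbrain dopamine neurons and induced by parathyroid hormone in osteoblasts, stood at 18.0, 12.4 and 10.6 CPM in HRP2-KO, against 24.6, 26.8 and 45.2 CPM in WT. Every HRP2-KO library was below every WT library. Nr4a2 averaged 13.6 ± 3.88 CPM in HRP2-KO and 32.2 ± 11.3 CPM in WT (SD, n = 3 each), and its log2 fold change was -1.24 ± 0.33 (standard error, edgeR adjusted p = 0.131, DESeq2 adjusted p = 0.0205). Over the 14 other settings tried, the adjusted p of Nr4a2 ranged from 0.0205 to 0.318. RefSeq places a predicted protein-coding gene, LOC105244150, across the start of Nr4a2, and its reads could not be separated from those of Nr4a2.

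Nr4a1 (Nur77, chromosome 15, 101253902 to 101274795), a receptor of apoptosis and of monocyte and T-cell regulation, stood at 171.8, 66.4 and 29.55 CPM in HRP2-KO, against 131.5, 166.5 and 308 CPM in WT. Replicate 6 lay inside the WT range and replicates 7 and 44 below it. The log2 fold change was -1.18 with a standard error of 0.67 (edgeR adjusted p = 0.330), and over the 14 other settings it ranged from -2.08, without HRP2-KO replicate 6, to -0.74, without WT replicate 12. Nr4a3 (Nor1, chromosome 4, 48045078 to 48086447), the rarest of the 10, stood at 2.44, 5.72 and 0.198 CPM in HRP2-KO, against 9.87, 9.70 and 8.95 CPM in WT. The groups did not overlap, and replicate 44 had 4 counts, whose exact 95% Poisson interval is 0.054 to 0.508 CPM and covers counting error only. The log2 fold change of Nr4a3 was -1.77 with a standard error of 0.94 (edgeR adjusted p = 0.305). It was -2.82 without HRP2-KO replicate 7 (edgeR adjusted p = 0.0598), -2.72 with limma voom and -1.24 without HRP2-KO replicate 44. Nr4a3 fell in the longest transcript-length group, in which the median gene of replicate 44 deviated by -0.499 in log2 CPM from its mean over libraries and Nr4a3 by -3.74.

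The upstream sequences of the 3 NR4A genes are shown because each holds 4 matches to TGACG. At least 4 matches were found in 0.137% of all windows, a count made after the sequences were seen. Capitals mark the same motifs as in the Egr2 window.
Nr4a1 (chr15:101266596-101266845, plus strand): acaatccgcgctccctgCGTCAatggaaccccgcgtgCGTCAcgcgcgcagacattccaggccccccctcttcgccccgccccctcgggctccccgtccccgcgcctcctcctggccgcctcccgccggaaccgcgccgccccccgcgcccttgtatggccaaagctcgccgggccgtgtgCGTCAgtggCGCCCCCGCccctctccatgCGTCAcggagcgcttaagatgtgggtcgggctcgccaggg
Nr4a2 (chr2:57124004-57124253, minus strand): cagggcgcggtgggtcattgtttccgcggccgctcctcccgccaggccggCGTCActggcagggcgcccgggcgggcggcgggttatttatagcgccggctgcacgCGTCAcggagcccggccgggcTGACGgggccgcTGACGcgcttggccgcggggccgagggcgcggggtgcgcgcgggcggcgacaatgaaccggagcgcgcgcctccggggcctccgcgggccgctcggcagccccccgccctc
Nr4a3 (chr4:48045055-48045304, plus strand): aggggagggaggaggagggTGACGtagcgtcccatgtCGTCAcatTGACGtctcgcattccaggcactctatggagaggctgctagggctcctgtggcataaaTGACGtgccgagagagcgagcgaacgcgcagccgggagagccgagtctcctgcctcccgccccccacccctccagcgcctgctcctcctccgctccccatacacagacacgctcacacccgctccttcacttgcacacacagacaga
The Nr4a1 window also holds the EGR site, on the minus strand and beginning 60 bases before the start, a motif found in 2.57% of all windows. Klf2 and Klf4 hold 1 match each to TGACG and to the EGR site, and Klf6 holds none of the motifs searched. The matches in these windows do not overlap.

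The KLF factors were lower in HRP2-KO in fitted level, by less than 2-fold each with all 6 libraries in edgeR, and none passed the threshold. Without HRP2-KO replicate 7 the log2 fold changes of Klf4 and Klf6 were -1.05 and -1.02, and without WT replicate 10 that of Klf6 was -0.175. Klf10 (TIEG1, chromosome 15, 38291464 to 38300711), first cloned from human osteoblasts as a gene induced by TGF-beta, stood at 12.7, 8.83 and 14.8 CPM in HRP2-KO, against 19.2, 22.85 and 18.7 CPM in WT. Every HRP2-KO library was below every WT library, and the log2 fold change was -0.74 with a standard error of 0.25 (edgeR adjusted p = 0.183). A long non-coding gene, Gm35248, overlaps Klf10, and the reads of that overlap could not be assigned without strand.

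Klf4 (chromosome 4, 55527137 to 55532475), a factor of epithelial barriers, of pluripotency and of macrophages, stood at 131.6, 154.3 and 51.2 CPM in HRP2-KO, against 185.6, 193.9 and 201.9 CPM in WT. The groups did not overlap, and replicate 44 stood well below the other HRP2-KO libraries. The log2 fold change was -0.79 with a standard error of 0.40 (edgeR adjusted p = 0.292). Klf6, a broadly expressed factor that is also abundant in myeloid cells, stood at 435.9, 689.9 and 214.6 CPM in HRP2-KO, against 1024, 572.6 and 436.7 CPM in WT. Its highest HRP2-KO and WT values came from replicates 7 and 10, the libraries with the highest summed macrophage markers of each group, at 13330 and 22840 CPM. The part of macrophages in the Klf6 values was not tested.

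Klf2 (chromosome 8, 72319062 to 72321654), the flow-induced factor of endothelium and of T-cell quiescence, stood at 101.2, 89.8 and 133.8 CPM in HRP2-KO, against 166.3, 149.6 and 113.8 CPM in WT. By CPM it was the 1 factor in which HRP2-KO replicate 44 was above a WT library. In TPM every HRP2-KO library was below every WT library for Klf2, at 119.3, 97.5 and 118.5 against 194.4, 196.6 and 141.9. The log2 fold change was -0.60 for Klf6 with a standard error of 0.51 (edgeR adjusted p = 0.488) and -0.40 for Klf2 with 0.24 (edgeR adjusted p = 0.343).

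**Figure D3:**
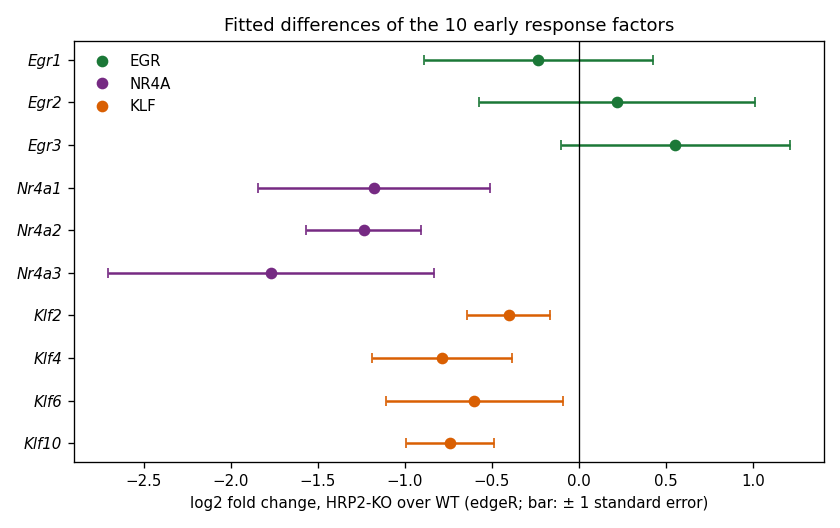
Fitted log2 fold change of each factor, HRP2-KO over WT, with 1 standard error on each side, coloured by family. The EGR factors lie between -0.23 and 0.55 with errors that reach across 0. The NR4A factors lie between -1.77 and -1.18 and the KLF factors between -0.79 and -0.40. Egr2 and Egr3 turned negative with limma on TPM, where Egr3 stayed above the median of all genes.

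The families were also set against each other within each library. The mean log2 CPM of the NR4A factors minus that of the EGR factors was -3.38, -2.52 and -2.35 in HRP2-KO, against -1.51, -1.50 and -0.958 in WT, so the groups did not overlap. In HRP2-KO replicate 44 that separation rested on Nr4a3, with 4 counts, which deviated by -3.74 in log2 CPM from its mean over libraries. There Nr4a1 and Nr4a2 deviated by -1.95 and -0.94, and Egr1, Egr2 and Egr3 by -2.01, -2.27 and -1.42. The mean log2 CPM of the KLF factors minus that of the EGR factors was -1.16, -0.013 and 1.57 in HRP2-KO. In WT it was 0.792, 0.49 and 0.266, with HRP2-KO on both sides of WT. These differences between families were not tested. The summed level of the 10 factors was 2303, 1880 and 642 CPM in HRP2-KO, against 2294, 2187 and 2156 CPM in WT, with replicate 44 alone far below the rest.

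In the median the factors varied more among HRP2-KO than among WT libraries. By the SD of log2 CPM, Nr4a2 varied less in HRP2-KO, at 0.393 against 0.473 in WT. Klf2 had 0.295 in HRP2-KO and 0.282 in WT. The median SD of log2 CPM was 1.06 in HRP2-KO and 0.292 in WT for the 10, beside 0.437 in HRP2-KO and 0.226 in WT over all tested genes. In 5 of the 10 (Egr1, Egr2, Egr3, Nr4a1 and Nr4a3) the highest HRP2-KO library was at least 5 times the lowest, beside 12.6% of all tested genes, and in WT this was so for 0 of 10, beside 3.61%. HRP2-KO replicate 44 was the lowest of the 6 libraries in 8 of the 10, beside 29.8% of all tested genes, the exceptions being Klf2 and Klf10, which were lowest in replicate 7. The 5-fold limit was chosen after the values were seen.

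Among 40 other immediate early genes, 26 were lower and 14 higher in HRP2-KO in fitted level. edgeR called 0 of 40 over all genes, with 13 lower and 5 higher at an unadjusted p under 0.05, beside 9.10% of all tested genes lower and 12.7% higher. DESeq2 called 13 of 40, beside 8.49% of its tested genes in either direction. Limma voom called 3, beside 0.270%, and limma on TPM called 3 with the larger pseudocount, beside 0.332%, and 2 with the smaller, beside 0.213%. HRP2-KO was wholly below WT in 15 of 40, beside 14.0% of all tested genes, and wholly above it in 4, beside 17.0%, and the median log2 fold change was -0.58. Without HRP2-KO replicate 7 edgeR called 21 of the 40, 16 lower and 5 higher, beside 24.1% of its tested genes in either direction, and 0 of the 10 factors, of which 3 were lower at an unadjusted p under 0.05, beside 20.6% of all tested genes in that fit.

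Fosb, an AP-1 subunit, stood at 90.7, 81.5 and 101 CPM in HRP2-KO, against 567.5, 809 and 593 CPM in WT. Its log2 fold change was -2.85 with a standard error of 0.24 (edgeR adjusted p = 0.0575). Fos, the partner of Jun in AP-1 and, like Egr1, a target of SRF, stood at 225.8, 212.5 and 146.2 CPM in HRP2-KO, against 913, 981 and 896 CPM in WT. HRP2-KO replicate 6, the highest library for Egr1, was among the low libraries for both Fosb and Fos.

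Zfp36, which encodes an mRNA-destabilising protein, stood at 167, 211 and 107 CPM in HRP2-KO, against 866, 918 and 813 CPM in WT (edgeR adjusted p = 0.0750). Its relative Zfp36l1 had a log2 fold change of -1.49 (edgeR adjusted p = 0.0982). The median ratio of the highest to the lowest HRP2-KO library was 2.18 in these 40 genes, 4.51 in the 10 factors and 1.80 in all tested genes. Of the 40, only Ier2 was highest of all 6 libraries in replicate 6 and lowest in replicate 44, as the EGR factors were, beside 2.22% of all tested genes. Within HRP2-KO alone, the order of replicate 6 above 7 above 44 held in 6 of the 40 (Fos, Ier2, Btg2, Ppp1r15a, Arc and Myc) and in 5 of the 10 factors (Egr1, Egr2, Egr3, Nr4a1 and Nr4a2), beside 11.2% of all tested genes.

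**Figure D4:**
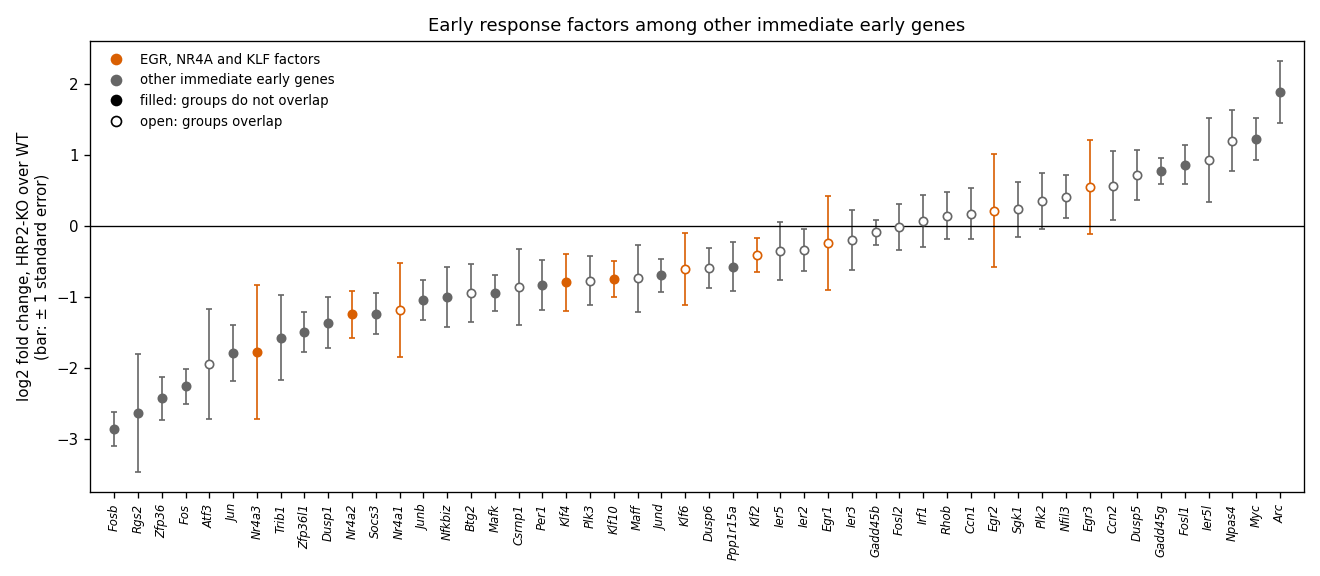
Fitted log2 fold changes, HRP2-KO over WT, of the 10 factors (orange) and 40 other immediate early genes (grey), sorted, with 1 standard error; filled symbols mark genes whose groups do not overlap. Fosb, at -2.85, is at the low end and the EGR factors, from -0.23 to 0.55, lie in the upper part of the range with wide errors. With limma on TPM Egr2 and Egr3 turned negative, and Egr3 stayed above the median of all genes.

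Other members of the 3 families and the EGR corepressors Nab1 and Nab2 showed no common direction. Of 16 listed, 15 were in the table and 12 were tested, with 6 higher and 6 lower in fitted level and a median log2 fold change of 0.077. edgeR called 0 over all genes, with 2 higher and 1 lower of 12 at an unadjusted p under 0.05, beside 12.7% higher and 9.10% lower of all tested genes, and DESeq2 called 1, beside 8.49%. Klf8 stood at 6.83, 3.64 and 2.98 CPM in HRP2-KO, against 0.592, 1.57 and 0.753 CPM in WT, and Klf9, a target of glucocorticoid receptor, at 94.5, 103.6 and 51.0 CPM in HRP2-KO, against 215, 152 and 136 CPM in WT. Klf16 averaged 23.1 ± 3.37 CPM in HRP2-KO and 16.1 ± 1.59 CPM in WT, and Klf15 6.18 ± 5.38 CPM in HRP2-KO and 18.1 ± 8.10 CPM in WT (SD, n = 3 each). Of the adjusted p-values of these 4, the smallest was that of Klf8 (edgeR adjusted p = 0.120).

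Of 24 tested regulators upstream of early response genes, 9 were higher and 15 lower in HRP2-KO in fitted level, with a median log2 fold change of -0.072. edgeR called 0 of 24, with 3 higher and 0 lower at an unadjusted p under 0.05, beside 12.7% and 9.10% of all tested genes, and DESeq2 called 1, beside 8.49%. Srf, the factor that binds the CArG box, stood at 109.8, 118.2 and 94.7 CPM in HRP2-KO, against 68.7, 61.1 and 62.5 CPM in WT, above WT in every library (edgeR adjusted p = 0.109). Its actin-regulated coactivator Mrtfa averaged 174 ± 10.3 CPM in HRP2-KO and 129 ± 14.0 CPM in WT. Map2k2, a kinase that activates ERK, averaged 175.5 ± 67.5 CPM in HRP2-KO and 101.6 ± 3.97 CPM in WT, and Crtc2, a CREB coactivator, 39.1 ± 9.59 CPM in HRP2-KO and 53.6 ± 5.52 CPM in WT (SD, n = 3 each). Creb1 had a log2 fold change of -0.077.

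Of 10 tested partners and known targets, edgeR called 0 over all genes, with 0 higher and 1 lower at an unadjusted p under 0.05, beside 12.7% and 9.10% of all tested genes, and DESeq2 called 0, beside 8.49%. That 1 gene was Thbd, which encodes thrombomodulin and is activated by KLF2 and KLF4 in endothelium, at 10.5, 35.0 and 7.19 CPM in HRP2-KO, against 43.9, 112 and 42.5 CPM in WT (edgeR adjusted p = 0.200). Pcna averaged 109 ± 19.9 CPM in HRP2-KO and 80.1 ± 12.2 CPM in WT. Rxra, the retinoid receptor that pairs with NR4A1 and NR4A2, averaged 126.5 ± 55.6 CPM in HRP2-KO and 183 ± 26.5 CPM in WT, and Tgfb1 103.5 ± 75.0 CPM in HRP2-KO and 183 ± 70.0 CPM in WT (SD, n = 3 each). Thbd, Rxra and Tgfb1 had their highest HRP2-KO value in replicate 7, the HRP2-KO library with the highest macrophage markers, and the part of macrophages was not tested.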

How the data were processed

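RNA of 6 samples of mouse bone marrow stromal cells was compared, 3 HRP2-KO and 3 WT, grouped by the genotype in the sample titles. Per the submitters' processing notes, BWA (version not stated) and build GRCm38.p6 were used. The counting program, the annotation and any strand setting were not given in the sources used here. The authors deposited estimated counts, which are not scaled and not all whole, and TPM values, in which the authors adjusted for transcript length and brought every library to the same sum, per the file headers. A further 36 value columns were not used. The members and lists were chosen with earlier results of these data known.

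Estimated counts were rounded, filtered with filterByExpr (minimum count 10, minimum total 15), scaled with TMM factors and tested on genotype with edgeR 4.0.16 (R 4.3.3), two-sided, with Benjamini-Hochberg adjustment over all genes and a threshold of 0.05. Standard errors are the log2 fold change over the square root of F. Mean log2 CPM used a prior count of 2. A gene with no count allows up to 0.139 to 0.160 CPM (3 counts, counting error only). Transcript-length groups come from the ratio of deposited counts to TPM.

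Other settings tried were no filter, 1 CPM in 3 samples, RLE or upper-quartile factors, DESeq2 1.42.0, limma 3.58.1 with voom, limma on log2 of TPM plus 1 or plus 0.1 for genes with TPM of at least 1 in 3 samples, and each replicate left out. Replicates of a group differed beyond counting noise, with a chi-square per degree of freedom of at least 50.3. The text names all members, Hdgfl2, up to 4 genes of smallest p in each list and 5 genes nearest in pattern; other genes, such as Creb1, Ier2, Btg2 and Pf4, were chosen after their values were seen. Figures used matplotlib 3.10.9.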

Additional observations from a re-analysis of the deposited data

How the results depend on the processing

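The count of called factors was 0 of 10 with RLE and upper-quartile factors, with no filter, with 1 CPM in 3 samples, with limma voom, with limma on TPM and in each of 6 fits that left out a replicate (lowest 0, highest 0), and 1 with DESeq2. The median log2 fold change of the 10 stayed negative under every alternative run, from -0.96 with limma on log2(TPM + 0.1) to -0.52 without HRP2-KO replicate 44. Over the whole table edgeR called 1 gene, DESeq2 1553, limma voom 37, limma on log2(TPM + 1) 42 and on log2(TPM + 0.1) 27, and leaving out a replicate gave 0 (without HRP2-KO replicate 44) to 3370 (without HRP2-KO replicate 7); the cause was not tested. Limma on TPM also moved the median log2 fold change of all genes to -0.21 and -0.235, against which the median of the 10 was -0.92 and -0.96. The 7 NR4A and KLF factors kept a negative log2 fold change under every alternative, though its size moved, as for Klf6 from -1.02 to -0.175 and for Klf4 from -1.19 to -0.45. The EGR factors did not. Egr2 was at -0.41 with limma voom, -0.585 with limma on log2(TPM + 1) and -0.65 on log2(TPM + 0.1), and from -0.80 to 0.73 with a replicate left out. Egr3 was at -0.064 and -0.11 with limma on TPM, and from -0.425 to 1.01 with a replicate left out. Egr1 was at -0.624 with limma voom, -0.875 with limma on log2(TPM + 1) and -0.879 on log2(TPM + 0.1). With a replicate left out Egr1 ranged from -0.88 to 0.23. No paired analysis was possible because the replicate numbers of the groups differ. Nr4a3 had only 4 counts in HRP2-KO replicate 44, which limits its fold change, while each EGR factor had at least 159 counts in every library.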

Other observations

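Heat shock and handling genes showed no common direction, with 5 of 10 higher and 5 lower in fitted level in HRP2-KO and a median log2 fold change of 0.14. edgeR called 0 over all genes, with 2 higher and 1 lower at an unadjusted p under 0.05, beside 12.7% and 9.10% of all tested genes, and DESeq2 called 1, beside 8.49%. The near-identical copies Hspa1a and Hspa1b, which can share reads, lay on opposite sides, Hspa1a at 28.4 ± 2.60 CPM in HRP2-KO and 50.8 ± 8.88 CPM in WT, and Hspa1b at 82.3 ± 14.2 CPM in HRP2-KO and 43.5 ± 14.6 CPM in WT (SD, n = 3 each). The mitochondrial cochaperone Hspe1 averaged 124.7 ± 78.9 CPM in HRP2-KO and 54.9 ± 9.79 CPM in WT, and Hsp90aa1 726 ± 163 CPM in HRP2-KO and 512 ± 31.6 CPM in WT. HRP2-KO replicate 44, the lowest library for 8 of the 10 early response factors, had the highest Hspe1 and Hsp90aa1 by CPM, at 209.8 and 898. In TPM, which allows for transcript length, it stayed highest for Hspe1, at 456.7. For Hsp90aa1 HRP2-KO replicate 6 was then higher, at 524 TPM against 502 TPM in replicate 44.

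Of 11059 other genes with a mean of at least 5 CPM, the 5 nearest to the mean pattern of the 10 factors over the 6 libraries were Wdr48, Rb1cc1, Zfp704, Lypla1 and Trp53bp2. Their root mean square differences in z-score from that pattern were 0.067 for Wdr48, 0.114 for Rb1cc1, 0.133 for Zfp704 and Lypla1 and 0.138 for Trp53bp2, over 6 libraries that share 1 normalisation. Rb1cc1, for example, had 84.2, 77.5 and 52.2 CPM in the HRP2-KO libraries 6, 7 and 44, against 87.1, 87.8 and 84.0 CPM in WT. Among the 10 factors Klf4, at 0.239, was nearest to their common mean and Klf2, at 1.27, farthest from it.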
